A study of Mus musculus with 1012 samples.

Results

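Tnf, which encodes the cytokine tumour necrosis factor, and the mCherry and EGFP transgenes are 3 of the 30452 features counted in 1012 single-cell libraries of mouse cells. They were taken by name, as the endogenous gene, the reporter driven by its promoter, and the green fluorescent protein carried by 2 of the 4 lines. RAW-G9 is a clone of the macrophage-like line RAW264.7 with an mCherry reporter under the Tnf promoter and a fusion of EGFP with Rela, the p65 subunit of NF-κB. RAW-G9 cells made up 44.3% of the libraries, and all of them carry both transgenes, mock cells included. Adipose stem and progenitor cells (ASPCs, 19.1% of the libraries) were primary subcutaneous cells of female C57BL/6J mice, sampled before (Pre) or after (Post) an adipogenic cocktail, and some had been transduced with a lentiviral barcode library that carries GFP and mixed with untransduced ASPCs. Immortalized brown preadipocytes (IBA, 35.5%) and the wild-type RAW264.7 line (12 libraries) have no reporter and served as negative reference. The IBA libraries include those of batch 8_1, scRNA-seq of cells 1 or 4 h after a Live-seq extraction and of unsampled controls (0 h). Lipopolysaccharide (LPS), a bacterial wall component, was given to RAW cells for several hours. The dose in the series text is 40 ng/ul, and the methods give a lower one.

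In macrophages, LPS binds Toll-like receptor 4 and releases NF-κB from its inhibitor IκBα, and NF-κB then enters the nucleus and binds the Tnf promoter. Tnf is among the early transcripts of this response, and AU-rich elements in its 3' end make the mRNA short-lived. A reporter with the same promoter but another transcript body reads promoter activity, and the stability of its RNA need not be that of Tnf. As RAW-G9 is 1 clone, its cells share an integration site, and the cell lines were not authenticated.

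Both techniques of the series were compared. Live-seq draws cytoplasm out of a living cell with a hollow cantilever and amplifies its RNA, and scRNA-seq lyses the whole cell. Both gave Smart-seq2 read counts without molecular identifiers, so that floors in CPM cover counting error only. The intervals on shares cover the sampling of cells, and neither covers the spread between batches. RAW-G9 cells came from Live-seq batches 6, 7, 8_8 and 9_4 (8, 20, 63 and 12 mock cells, and 4, 16, 9 and 10 LPS cells) and from scRNA-seq batches 8_8, 9_1 and scRNA (16, 46 and 95 mock cells, and 15, 46 and 88 LPS cells). Mock cells received saline without LPS. Total counts per RAW-G9 library ranged from 64547 to 1116946 in Live-seq (median 422075) and from 41030 to 1418783 in scRNA-seq (median 437336), with a median of 3409.5 and 8008.5 genes detected. Levels are given as CPM, the count scaled to the library total in units of 1000000 counts, of the sum over the cells of a batch, and in such sums fewer expressing cells and less RNA per cell cannot be told apart. The transcript lengths of the transgenes are not given in the sources used here, so levels were not compared between genes. All 10 macrophage markers checked, such as Cd68 and Lyz2, were counted in RAW-G9 cells of both techniques, where the 10 mesenchymal markers summed to 0.744 CPM in Live-seq and 3.53 CPM in scRNA-seq. In single RAW-G9 cells the macrophage markers summed to 4.69 to 31453 CPM in Live-seq (median 9876). In scRNA-seq the range was 2696 to 61022 CPM (median 8292). The Live-seq cell at 4.69 CPM thus had few of these counts. One library labelled IBA (scRNA-seq, batch 9_1) had counts of 10 of the 10 macrophage markers, 31779 CPM in sum, and of 0 of the 10 mesenchymal ones, and it was kept under its label.

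Tnf lies on mouse chromosome 17 at 35199381 to 35202007 on the reverse strand of GRCm38. The 250 bases before its transcription start are shown because this gene's promoter drives mCherry in RAW-G9 cells. They are from RefSeq on GRCm38.p6 at chr17:35202008-35202257 on the reverse strand. The first capitals from the left mark a match of an NF-κB pattern, which is 3 G, any 5 bases and 2 C. The next mark the Ets pattern GAGGAA, here read on the opposite strand. After that comes the GC box, searched as GGGCGG and likewise matched on the opposite strand. The last capitals are those of the TATA box, TATAAA.
Tnf promoter: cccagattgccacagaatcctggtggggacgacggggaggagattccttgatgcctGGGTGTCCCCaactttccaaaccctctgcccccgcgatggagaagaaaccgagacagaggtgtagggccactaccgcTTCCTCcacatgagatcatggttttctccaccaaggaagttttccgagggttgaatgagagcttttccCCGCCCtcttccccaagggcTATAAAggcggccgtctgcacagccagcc
The NF-κB pattern stood at -194 to -185 from the start, the Ets pattern at -117 to -112, the GC box at -49 to -44 and the TATA box at -29 to -24. Among 32851 mouse promoters of 300 bases, searched on both strands, 45.8% held the NF-κB pattern, 23.3% the Ets pattern, 32.7% the GC box and 12.4% the TATA box. The AP-1 pattern TGANTCA, held by 6.75% of them, is not written in this window. A match of these letters is a description of the sequence, and how much of the promoter the reporter holds is not given in the sources used here.

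Tnf rose after LPS in every batch of both techniques. In scRNA-seq, mock sums were 79.9 CPM (batch 8_8), 223.9 CPM (9_1) and 335.5 CPM (batch scRNA), and LPS sums were 1471, 2502 and 1783 CPM. In Live-seq, mock sums were 307.5 CPM (batch 6), 126.7 CPM (7), 190.1 CPM (8_8) and 128.2 CPM (9_4), against 3130, 1772, 1666 and 2230 CPM after LPS. The mean of the mock sums was 213.1 ± 128.1 CPM (SD, n = 3) in scRNA-seq and 188.1 ± 84.9 CPM (SD, n = 4) in Live-seq. Every LPS sum of Tnf lay above every mock sum in both techniques, which held for 7.01% of the 11676 genes tested in scRNA-seq and 1.10% of 11456 in Live-seq. In edgeR's quasi-likelihood test over batch sums with Benjamini-Hochberg adjustment, the log2 fold change of Tnf was 3.49 (SE 0.34, adjusted p = 0.00816) in scRNA-seq, where 2.67% of genes were called higher and 1.70% lower when a call asked for an adjusted p under 0.05 with more than 1 log2 unit of change. In Live-seq it was 3.63 (SE 0.40, edgeR adjusted p = 0.203, rank 2 of 11456 by p), and this test called 0% of genes higher and 0% lower, with 2.20% at an unadjusted p under 0.05. DESeq2 called 2.02% on the same Live-seq sums, Tnf among them (3.69, adjusted p = 0.000131). Over the 7 pairs of sums from both techniques, the mean log2 change of Tnf was 3.50 ± 0.62 (SD, n = 7), positive in 7 of 7, with p = 0.0156 in an exact two-sided sign-flip permutation test, the smallest p that 7 pairs can give.

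mCherry rose in all 3 scRNA-seq batches and in 3 of 4 Live-seq batches. The scRNA-seq mock sums were 16.9, 55.6 and 192.7 CPM in batches 8_8, 9_1 and scRNA, and the LPS sums 983.4, 1844 and 1233 CPM. Every LPS sum lay above every mock sum, as for 7.01% of the 11676 genes tested, and the log2 fold change was 4.64 (SE 0.64, edgeR adjusted p = 0.0191). In Live-seq batches 7, 8_8 and 9_4, mock sums of 31.6, 127.5 and 50.6 CPM stood against 1203, 636.8 and 1696 CPM after LPS. Batch 6 went the other way, with 1328 CPM in 8 mock cells and 998.2 CPM in 4 LPS cells, so the Live-seq groups overlapped. Of that LPS sum, 1 cell held 62.1% of the mCherry and 66.8% of the EGFP counts, and it is labelled as a second extraction. The lowest mCherry change of a batch became -1.46 without such extractions. The mean over mock sums was 384.4 ± 630.4 CPM (SD, n = 4) in Live-seq, against 88.4 ± 92.4 CPM (SD, n = 3) in scRNA-seq. The Live-seq log2 fold change was 3.34 (SE 1.27), with an edgeR adjusted p of 1.0 and a DESeq2 adjusted p of 0.0735. Over 7 pairs the mean was 3.69 ± 2.26 (SD), positive in 6 of 7, with p = 0.0312 in the exact sign-flip permutation test. Batch 8_8 enters this test once per technique, and with its pairs averaged the exact p was 0.0625, which does not pass 0.05.

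EGFP, here part of the Rela fusion, moved in the same direction by less. In scRNA-seq, mock sums of 63.99, 110.98 and 108.93 CPM in batches 8_8, 9_1 and scRNA stood against 111.39, 254.79 and 376.9 CPM after LPS. The highest mock sum was just under the lowest LPS sum, an order without overlap that 7.01% of the 11676 tested genes had. The log2 fold change was 1.41 (SE 0.22, edgeR adjusted p = 0.0257). Live-seq mock sums were 539.6, 23.8, 45.7 and 46.8 CPM in batches 6, 7, 8_8 and 9_4, against 421.1, 172.7, 81.8 and 276.02 CPM after LPS, and these groups overlapped through batch 6. The Live-seq change of 1.55 (SE 0.93) did not pass, with an edgeR adjusted p of 1.0. Over 7 pairs it was 1.38 ± 1.11 (SD), positive in 6 of 7, with p = 0.0312 in the exact sign-flip permutation test. This p did not pass 0.05 with batch 8_8 averaged (exact p = 0.0625) or without the 6 LPS libraries of cells labelled as sampled before (exact p = 0.0781). All 3 members were thus called in scRNA-seq and none in Live-seq by edgeR, and without batch 9_1 none of the 3 scRNA-seq calls remained (adjusted p = 0.0576 for Tnf, 0.098 for mCherry and 0.132 for EGFP). A joint fit of all 14 sums of both techniques also ended the 3 calls (edgeR adjusted p = 0.277, 1.0 and 1.0), and EGFP was not called without the block by batch (0.161) or without batch scRNA (0.0684).

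**Figure D1:**
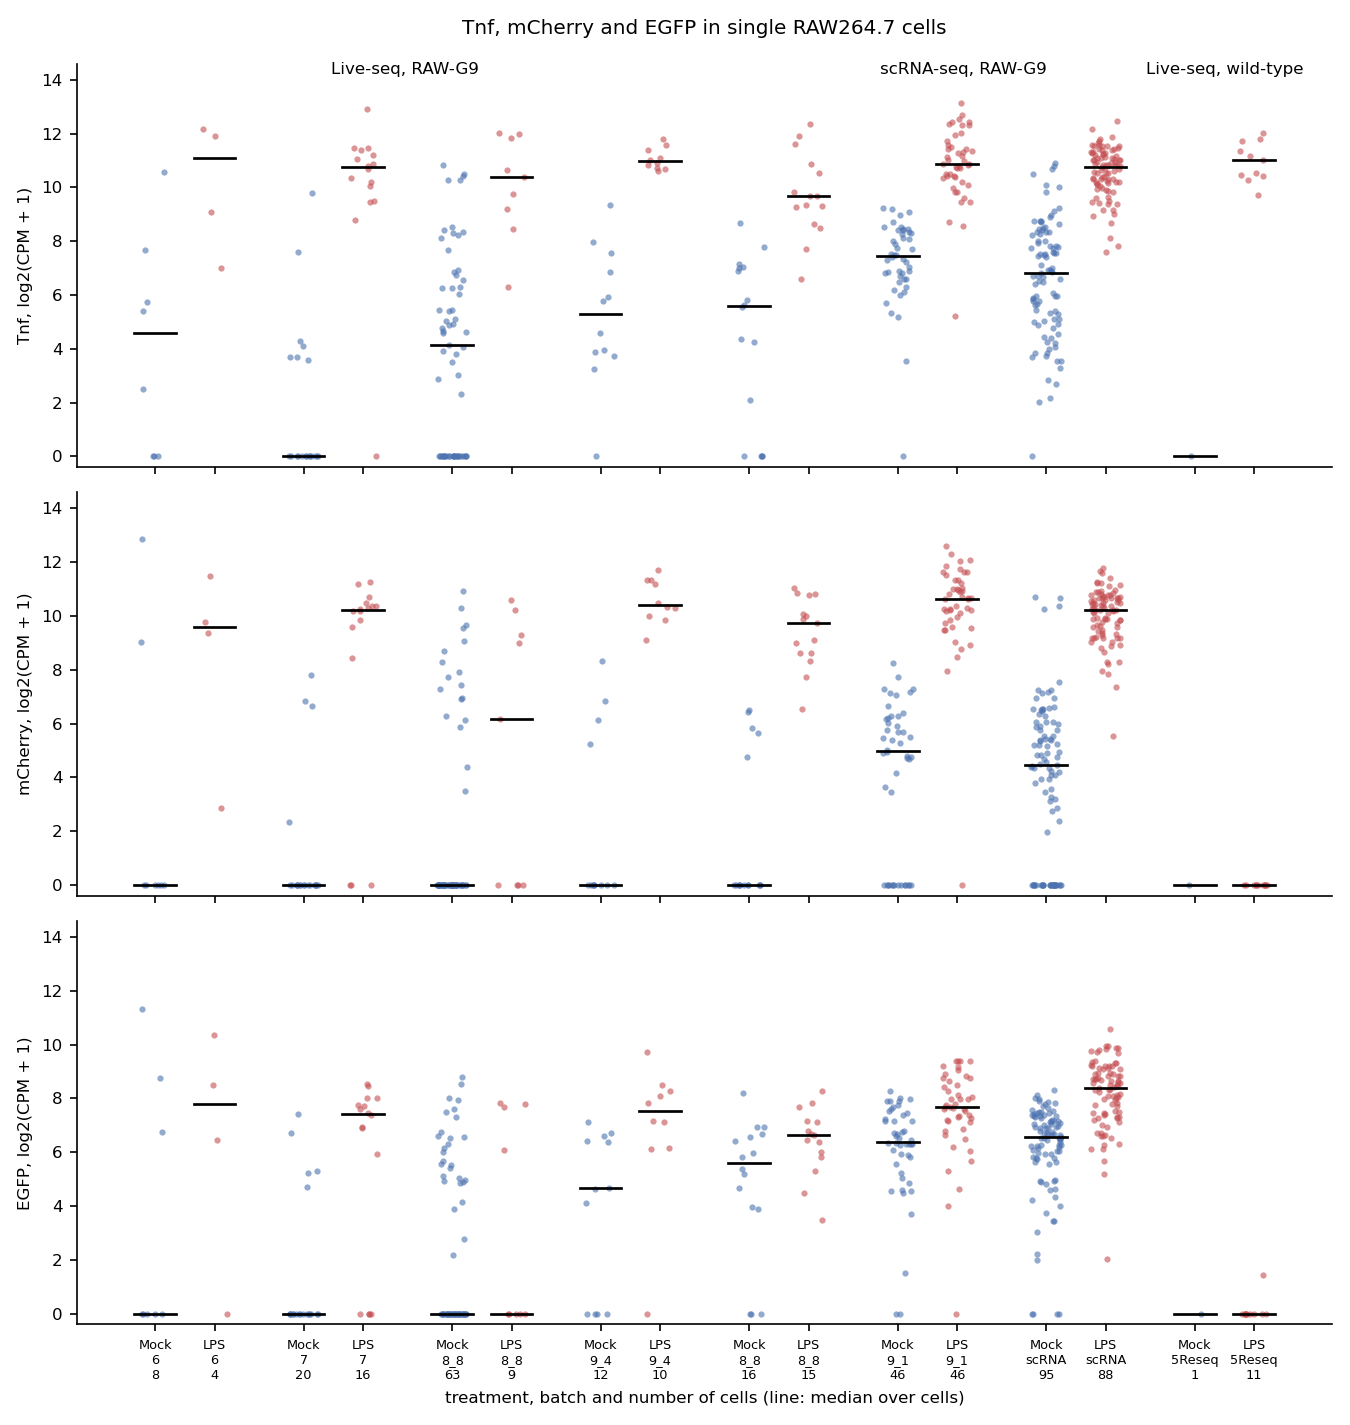
Each point is a cell, with log2(CPM + 1) of Tnf, mCherry and EGFP on the vertical axes and treatment, batch and number of cells along the horizontal axis. Black lines are medians over cells, blue is mock and red is LPS. The median of Tnf is higher in LPS than in mock cells in every RAW-G9 batch, and wild-type LPS cells have Tnf with mCherry at 0.

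Whether the reporter changed as much as the gene was asked from the difference of the log2 changes, in which transcript length cancels. In scRNA-seq, mCherry changed more than Tnf in each batch, by 1.66 (8_8), 1.57 (9_1) and 0.27 (scRNA) on the log2 scale. In Live-seq the difference was 1.44 (batch 7) and 0.95 (9_4), but -3.76 (6) and -0.81 (8_8). Its mean over 7 pairs was 0.19 ± 1.95 (SD, p = 0.828, exact sign-flip permutation test), so a common difference was not resolved against the spread between batches. Batch 6 decided much of this mean, which was 0.85 ± 0.96 (SD, n = 6) without it, with p = 0.0938 in the same exact test. The mean was 1.16 ± 0.78 over the 3 scRNA-seq pairs, where the smallest possible exact p is 0.25. EGFP changed less than Tnf in 7 of 7 pairs, by a mean of -2.12 ± 1.16 on the log2 scale (SD, p = 0.0156, exact sign-flip permutation test), a comparison added after the values were seen.

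The ratio of mCherry to Tnf counts gives the same comparison within each sum. Among scRNA-seq LPS sums it was 0.668, 0.737 and 0.692 in batches 8_8, 9_1 and scRNA, and among the mock sums 0.211, 0.248 and 0.575. The LPS ratios were thus close to each other and all above the mock ratios. In Live-seq the LPS ratios were 0.319, 0.679, 0.382 and 0.760 in batches 6, 7, 8_8 and 9_4, and the mock ratios 4.32, 0.249, 0.671 and 0.394, so that these groups overlapped. Reads of Tnf-derived sequence within the reporter could be counted to Tnf, which was not tested.

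**Figure D2:**
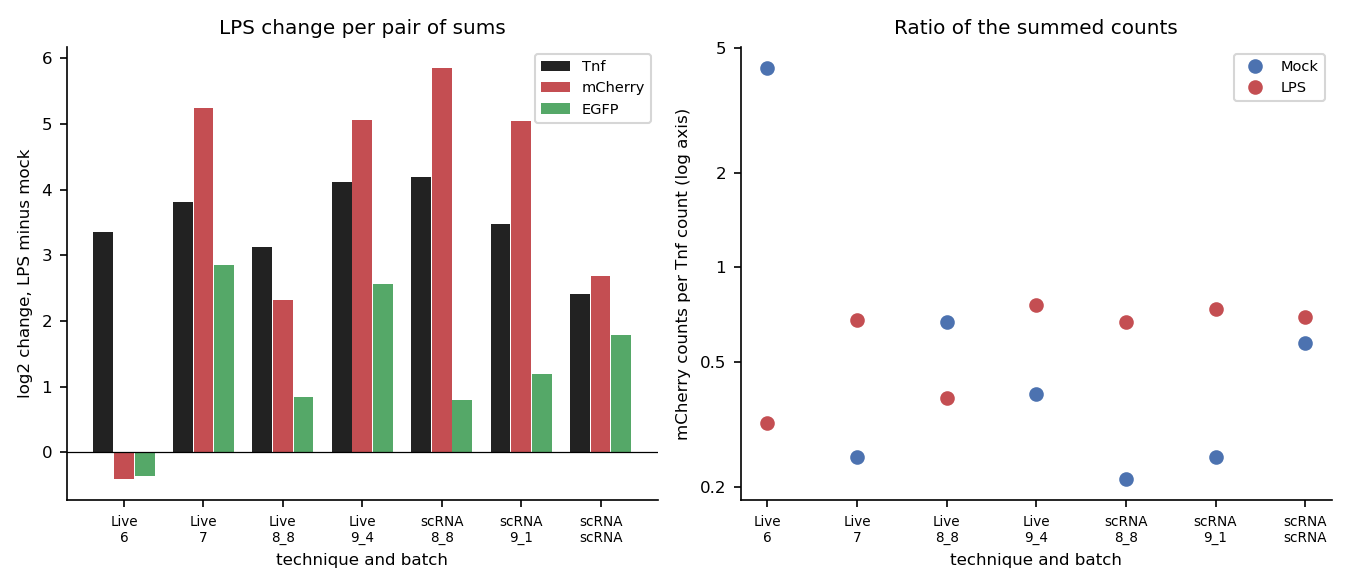
Left, log2 change from mock to LPS of the batch sums for Tnf, mCherry and EGFP, by technique and batch. Right, mCherry counts per Tnf count in mock and LPS sums on a log axis, where the mock sum of Live-seq batch 6 stands at 4.32 and the other mock sums lie between 0.211 and 0.671.

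A few mock cells carried much of the mock signal in most batches. After the values had been seen, a limit of 500 CPM for both Tnf and mCherry was set, and 8 mock cells lay above it. The 1 such cell of Live-seq batch 6 had 1535 CPM of Tnf, 7422 CPM of mCherry and 2544 CPM of EGFP, and it held 82.5%, 92.4% and 78.0% of that mock sum. In Live-seq batch 8_8, 3 of 63 cells held 46.4% of Tnf, 59.4% of mCherry and 17.4% of EGFP. In batch scRNA, 4 of 95 cells held 55.3%, 81.9% and 19.1%. EGFP, which the limit did not use, was at 62.7 to 192.4 CPM in the 3 cells of batch 8_8 and at 141.2 to 228.3 CPM in the 4 cells of batch scRNA. The 4 scRNA-seq cells had 5366 to 5771 genes detected, against a median of 7964 in the other mock cells of that batch. The Live-seq cells went the other way, with 2783 genes against a median of 1472 in batch 6 and 3839 to 5854 against a median of 3322 in batch 8_8. In the 4 scRNA-seq cells Il1b, an inflammatory cytokine, was at 1592 to 3544 CPM, while the highest of the other scRNA-seq mock cells had 7.37 CPM. The 4 Live-seq cells had Il1b at 43.2 to 463.9 CPM, with 41 CPM as the highest of the other 99 mock cells. Ccl3, a chemokine, was at 6989 to 8049 CPM in the 4 scRNA-seq cells and at 630.1 to 18372 CPM in the 4 Live-seq cells, and the other mock cells reached 3410 and 6432 CPM. Of 6 inflammatory genes looked at in this way (Ccl3, Il1b, Clec4e, Cxcl2, Nfkbia and Tnfaip3), 4 were higher in every such cell than in any other mock cell of scRNA-seq, while Nfkbia and Tnfaip3 overlapped. In Live-seq this held for Il1b alone, and the other 5 overlapped. These 6 genes were chosen after their values were seen. No share over all genes is given beside them, so the counts describe the 6 alone. In Live-seq batch 7, 1 mock cell held 83.8% of the Tnf counts, at 885.6 CPM, and was not among the 8 because no mock cell of that batch had over 222.2 CPM of mCherry. In batch 9_4, 1 of 12 mock cells held 52% of the Tnf and 65.9% of the mCherry counts, and it too was below the limit for mCherry. What set these cells apart was not tested.

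Leaving out these 8 cells can only lower the mock sums of Tnf and mCherry, so the values without them are a description. The log2 change in Live-seq batch 6 became 5.60 for Tnf, 3.05 for mCherry and 1.56 for EGFP, so that all 3 members were then higher after LPS in 7 of 7 pairs, a direction that leaving out cells chosen for high mock values favours. The edgeR fold changes in scRNA-seq were 3.83 for Tnf, 5.40 for mCherry and 1.46 for EGFP, and in Live-seq 4.38, 4.26 and 2.02. The mean difference of the mCherry and Tnf changes was 0.60 ± 1.57 (SD, n = 7).

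In the libraries held here, single cells showed how often each transcript was caught. The paper sequenced more Live-seq libraries than these. A larger part of them than of scRNA-seq libraries failed its limits on genes detected, mitochondrial reads and mapping. Shares over all biopsies are thus not shown. After LPS, 97.4% of the 39 Live-seq cells had a Tnf count, 82.1% an mCherry count and 71.8% an EGFP count, and in scRNA-seq every LPS cell had Tnf, 99.3% mCherry and 99.3% EGFP. In mock cells the Live-seq shares were 60.2% (exact binomial 95% interval 50.1 to 69.7), 27.2% (18.9 to 36.8) and 42.7% (33 to 52.8), and the scRNA-seq shares 96.2% (91.9 to 98.6), 66.9% (58.9 to 74.2) and 94.3% (89.4 to 97.3). These intervals pool cells over batches that differ. In batch 8_8, which holds both techniques, the mock shares were 61.9% in Live-seq (48.8 to 73.9) and 75% in scRNA-seq (47.6 to 92.7) for Tnf, 28.6% (17.9 to 41.3) and 31.2% (11 to 58.7) for mCherry, and 44.4% (31.9 to 57.5) and 81.2% (54.4 to 96) for EGFP, and the intervals overlapped for each member. With each cell thinned to 50000 counts and 4 shallower RAW-G9 cells left out (1 LPS and 2 mock cells of Live-seq, 1 mock cell of scRNA-seq), mock shares were 49.5% for Tnf, 25.7% for mCherry and 37.6% for EGFP in Live-seq, and 88.5%, 53.2% and 86.5% in scRNA-seq. Within batch 8_8 the thinned mock shares were 51.6% in Live-seq and 62.5% in scRNA-seq for Tnf, 27.4% and 25% for mCherry and 35.5% and 75% for EGFP, so that the order of the techniques did not hold for mCherry there. Thinning matched total counts, not genes detected. In the reference lines the background was low, with a Tnf count in 1, an mCherry count in 2 and an EGFP count in 2 IBA cells (0.279%, 0.557% and 0.557%).

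mCherry was almost never counted without Tnf. Among mock Live-seq cells, 27 had both, 35 Tnf alone, 1 mCherry alone (batch 7) and 40 neither. Among LPS Live-seq cells, 32 had both, 6 Tnf alone and 1 neither. In scRNA-seq, 1 LPS cell had Tnf alone and the others both, and of mock cells 46 had Tnf alone, 6 neither and the rest both. After thinning, 3 mock Live-seq cells and 7 mock scRNA-seq cells had mCherry without Tnf, so the near absence of that class depends on depth.

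In 8 LPS cells mCherry was not counted. The 1 scRNA-seq cell among them (batch 9_1) had 21 Tnf counts and no EGFP count among 586067 counts. The other 7 were Live-seq cells of batches 7 and 8_8, of which 6 had Tnf, up to 7753 CPM in a cell of batch 7. These cells had fewer genes detected, with a median of 1135 against 4156 in the other LPS cells of batch 7, and of 1286.5 against 3500 in batch 8_8. Their kept counts were lower as well, with a median of 237327 (172665 to 552275) against 707886 (502063 to 888939) in batch 7 and of 105789.5 (42061 to 160084) against 194538 (104064 to 284716) in batch 8_8. The part of depth in the missing mCherry was not tested.

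Across cells of the same batch and treatment, the rank correlation of Tnf and mCherry differed by group. Spearman's rho had a mean over batches of 0.48 (0.37 to 0.67, 3 batches) in scRNA-seq LPS cells and 0.18 (0.11 to 0.28) in scRNA-seq mock cells. In Live-seq it was 0.49 (0.28 to 0.78, 4 batches) in mock cells and -0.01 (-0.42 to 0.40, 3 batches of at least 8 cells) in LPS cells. Cells of a batch share library preparation and are not replicates, so these values are descriptions. Thinning to equal total counts gave 0.46, 0.19, 0.51 and 0.11 in the same order, where the Live-seq mock value is over 3 batches, since batch 6 then had under 8 cells. Without the high mock cells and without thinning, rho in mock cells was 0.18 in batch scRNA (0.28 with them). In Live-seq batch 8_8 it was 0.45 (0.54 with them).

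Tnf and the reporter both varied between LPS cells, with no order between them that held in every batch. The coefficient of variation of CPM over scRNA-seq LPS cells was 1.08, 0.75 and 0.55 for Tnf and 0.72, 0.71 and 0.57 for mCherry in batches 8_8, 9_1 and scRNA. In Live-seq LPS cells it was 1.00, 0.91, 0.89 and 0.30 for Tnf and 1.12, 0.69, 1.33 and 0.53 for mCherry in batches 6, 7, 8_8 and 9_4. The batch with the evenest Tnf, 9_4, was also the one with the evenest mCherry in Live-seq.

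**Figure D3:**
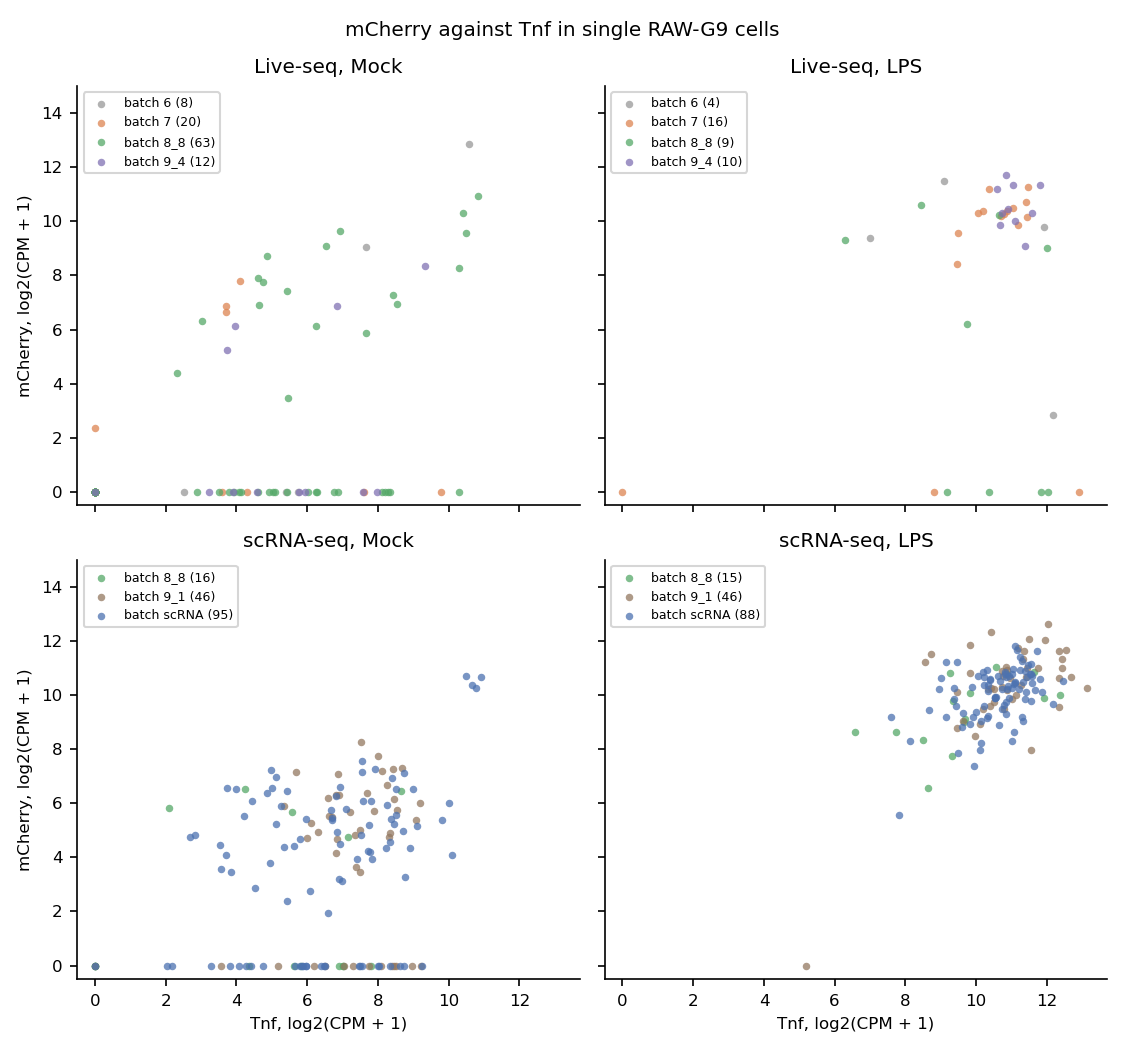
mCherry against Tnf in single RAW-G9 cells, both as log2(CPM + 1), by technique and treatment, coloured by batch with cell numbers in the legends. Cells on the horizontal axis have no mCherry count, as do 7 of 39 Live-seq LPS cells and 1 scRNA-seq LPS cell, and the 4 mock cells of batch scRNA above 500 CPM of both lie apart at the upper right of their panel.

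A set of 4 RAW-G9 cells was sampled by Live-seq before and after LPS. Their Tnf went from 53.6 to 2692 CPM (batch 9_4, pair 19_27), from 0 to 1304 CPM (batch 7, pair 2_3), from 0 to 2107 CPM (batch 7, pair 7_12) and from 0 to 1629 CPM (batch 9_4, pair 31_44). mCherry had no count before LPS in any of the 4 and was at 548.4, 2337, 1450 and 924.5 CPM after it. EGFP had none before and was at 141.4, 214.7, 165.8 and 0 CPM after, so that the last cell was without EGFP at both times. Tnf and mCherry were thus higher after LPS in 4 of 4 cells, which is the direction of the groups these cells belong to. The libraries before and after LPS had 373391 and 466853 kept counts in pair 19_27, 275357 and 707886 in pair 2_3, 122640 and 729810 in pair 7_12 and 430094 and 300711 in pair 31_44, and the part of depth in the counts of 0 was not tested. Both libraries of pair 31_44 are labelled as a first extraction.

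The techniques were also compared at the same treatment, without batch in the model because only batch 8_8 holds both. In mock cells the Live-seq minus scRNA-seq log2 difference was 0.02 (SE 0.47) for Tnf, 2.41 (SE 1.14, unadjusted edgeR p = 0.0511) for mCherry and 1.12 (SE 0.99) for EGFP. The mCherry difference includes the Live-seq mock sum of batch 6, at 1328 CPM with and 120.3 CPM without its 1 high cell, and the medians of the mock sums were 89 CPM in Live-seq and 55.6 CPM in scRNA-seq. In LPS cells the difference was 0.27 (SE 0.47), -0.13 (SE 1.05) and -0.03 (SE 0.96). In each of these contrasts edgeR called 0% of 11554 genes, with 4.11% in mock and 9.58% in LPS at an unadjusted p under 0.05 (0.32% and 2.71% called by DESeq2). The standard errors leave differences of a log2 unit or more between techniques unresolved for both transgenes. Within batch 8_8, mock levels were 190.1 CPM in Live-seq and 79.9 CPM in scRNA-seq for Tnf, 127.5 and 16.9 CPM for mCherry and 45.7 and 63.99 CPM for EGFP. Without the 3 high cells, mock Live-seq levels of that batch were 108.2, 55 and 40.1 CPM.

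The LPS effect itself was set against technique as an interaction. The Live-seq effect differed from that in scRNA-seq by 0.14 (SE 0.53) for Tnf, -1.35 (SE 1.70) for mCherry and 0.17 (SE 1.03) for EGFP on the log2 scale. edgeR called 0% of genes in this contrast, with 4.76% at an unadjusted p under 0.05, and DESeq2 called 0.519%, none of them a member. In Live-seq the median log2 fold change over all tested genes was -0.48, and relative to it Tnf changed by 4.11, mCherry by 3.82 and EGFP by 2.04. In scRNA-seq that median was -0.01.

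The wild-type line gave the reporter's background. Its 11 LPS cells, from Live-seq batch 5Reseq, had Tnf between 833.8 and 4178 CPM, with a sum of 2261 CPM that falls inside the range of the RAW-G9 LPS sums (1471 to 3130 CPM). mCherry was counted in 0 of 11 cells, which allows a share of up to 27.3% (3 counts of the total, and 28.5% as the exact binomial bound), and its floor of 3 counts over the group is 0.578 CPM. The lowest Live-seq LPS sum of RAW-G9 was at least 1102-fold higher. EGFP had 1 count in 1 of these cells. The single wild-type mock cell had no count of any member. Among IBA cells, Tnf was counted in the 1 cell with macrophage markers (54 counts, 94.2 CPM), mCherry once in each of 2 Live-seq cells of batch 9_4, and EGFP once in 1 Live-seq and once in 1 scRNA-seq cell. None of the 3 was counted in the 70, 49 and 43 whole-cell IBA libraries of batch 8_1 labelled 0, 1 and 4 h. The order of levels was therefore the same for Tnf and mCherry within RAW-G9, LPS above mock save for mCherry in batch 6, with IBA and ASPCs near 0, while the order of the techniques within a treatment was not resolved for any member.

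EGFP in ASPCs followed the batch. In batch 8_8 it was counted in 0 of 18 Live-seq cells, which allows a share of up to 16.7%, and in 0 of 16 scRNA-seq cells, which allows up to 18.8% (3 counts of the total, with exact binomial bounds of 18.5% and 20.6%). In Live-seq batch 9_4 it was counted in 67.4% of 43 Pre cells (exact binomial 95% interval 51.5 to 80.9) and 51.4% of 37 Post cells (34.4 to 68.1). In scRNA-seq batch 9_1 the shares were 84.1% of 44 Pre cells (69.9 to 93.4) and 77.1% of 35 Post cells (59.9 to 89.6). The Pre and Post intervals overlapped in both techniques, which does not show that the shares were equal. The sums were 460.2 CPM (Pre) and 557.7 CPM (Post) in Live-seq and 497.2 and 569.8 CPM in scRNA-seq. As each state with EGFP has 1 batch per technique, these differences were not tested. GFP fluorescence was used to find the cells for repeated extraction, so the presence of EGFP there is what the selection used.

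Within batches 9_4 and 9_1 EGFP was spread widely. The labels do not say which of these cells had been transduced. Cells with a count ranged from 2.31 to 5463 CPM among Live-seq Pre cells and from 4.70 to 8310 CPM among Live-seq Post cells, with medians of 240.5 and 516.7 CPM. In scRNA-seq they ranged from 0.994 to 6450 CPM (Pre) and from 2.28 to 7812 CPM (Post), with medians of 217.1 and 82.6 CPM. Among cells with a count, the order of the Pre and Post medians was thus the opposite of that in Live-seq. Over all cells the order was the same in both techniques. Those medians were 42.1 (Pre) and 4.70 CPM (Post) in Live-seq and 168.7 and 22.8 CPM in scRNA-seq. Above 100 CPM were 17 of 29 Pre and 14 of 19 Post cells with EGFP in Live-seq, and 24 of 37 Pre and 13 of 27 Post cells in scRNA-seq. Of Live-seq Post cells labelled as a second extraction, 17 of 24 had EGFP, and of those without a label for order 2 of 13 did. Among Live-seq Pre cells, 21 of 31 labelled as a first extraction and 8 of 12 without a label had EGFP. All ASPCs together had 38142 EGFP counts, 2 mCherry counts and 3 Tnf counts.

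A set of 9 ASPCs is labelled as sampled at both times, and EGFP differed widely between the libraries of a pair. Whether the lentiviral barcodes match within each pair was not analysed here. It was counted both times in 4 pairs, in the first alone in 2 and in the second alone in 3. EGFP went from 0 to 2590 CPM in pair 115_143, from 0 to 2750 CPM in pair 130_155 and from 2192 to 0 CPM in pair 141_168. In pair 173_190 it went from 32.2 to 8310 CPM, and in pair 134_163 from 832.3 to 10.9 CPM. The first and second library had 509975 and 482219 kept counts in pair 141_168 and 464845 and 467590 in pair 130_155. In the others the libraries were of unequal depth, with 139813 and 517661 kept counts in pair 115_143, 590900 and 252333 in pair 173_190 and 277543 and 549219 in pair 134_163. The part of depth in these differences was not tested.

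**Figure D4:**
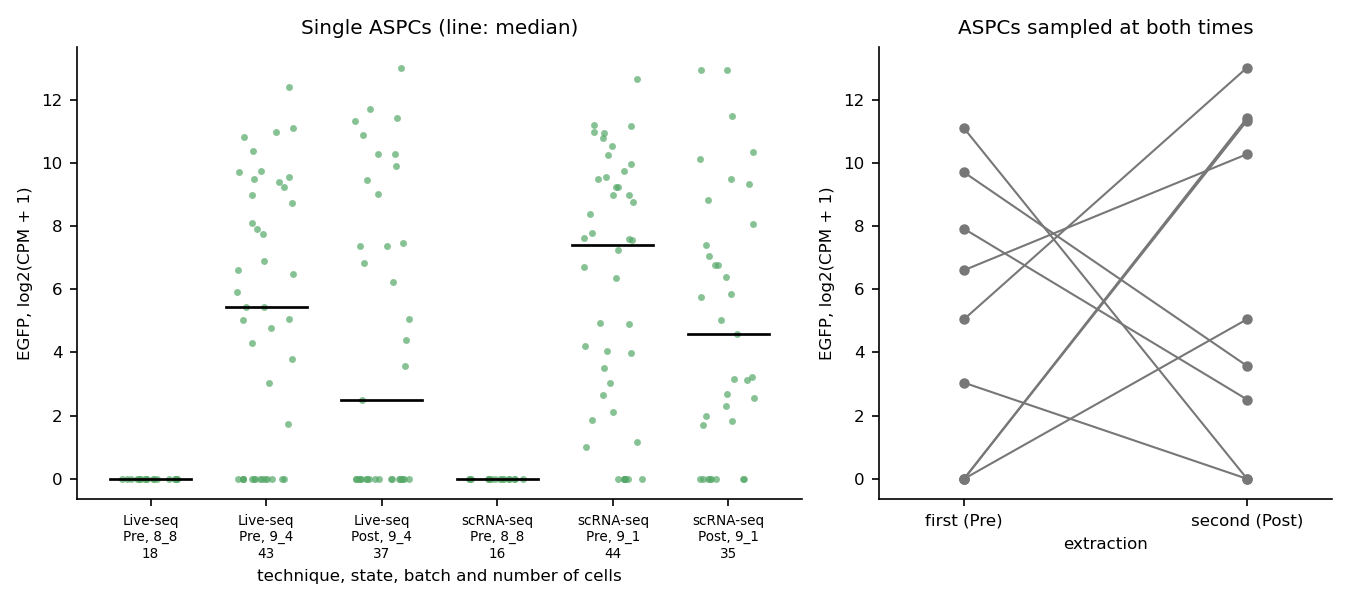
Left, EGFP as log2(CPM + 1) in single ASPCs by technique, state, batch and number of cells, with medians over cells as lines. Right, the 9 ASPCs labelled as sampled before and after the cocktail, a line per labelled pair. Both groups of batch 8_8 are at 0, and lines in the right panel go up and down.

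EGFP went with Rela in RAW-G9 cells and not in ASPCs. Across cells of a batch, the mean Spearman's rho of EGFP and Rela was 0.74 in scRNA-seq LPS cells (0.56 to 0.91), 0.52 in scRNA-seq mock cells (0.24 to 0.70), 0.80 in Live-seq mock cells (0.64 to 1.0) and 0.61 in Live-seq LPS cells (0.47 to 0.86). In the 4 groups of ASPCs of batches 9_4 and 9_1 it was between -0.05 and 0.08. The rho of 1.0 was that of Live-seq batch 6, where 3 of 8 mock cells had EGFP and 3 had Rela counts. There EGFP and Rela each had a rho of 0.79 with kept counts, and no thinned value was computed for this pair of genes. Reads from the Rela part of the fusion transcript may be counted to Rela, and their part in the correlation of EGFP and Rela was not tested. Rela itself was at 74.8 to 384.3 CPM in the Live-seq LPS sums of RAW-G9 and at 67.6 CPM in the wild-type LPS cells. Its LPS change in scRNA-seq was 0.95 (SE 0.25, edgeR adjusted p = 0.0919), which was not called. Without batch 8_8 it was 1.33 (edgeR adjusted p = 0.00364), which meets the call. DESeq2 on all 3 batches gave 0.97 (adjusted p = 0.00298), below 1 log2 unit.

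Among 11675 other genes, those whose log2(CPM + 1) over the 14 RAW-G9 sums was most like each member were named by Pearson's r. For Tnf these were Srgn (0.966), a granule proteoglycan, Ccl3 (0.961), Il27 (0.955), a cytokine subunit, Nfkbib (0.948), an NF-κB inhibitor, and Clec4e (0.945), a receptor for microbial glycolipids. mCherry stood at rank 15 for Tnf (0.899). For mCherry they were Nfkbia (0.957), which encodes IκBα, the chemokine Ccl5 (0.955), Sod2 (0.954), the mitochondrial superoxide dismutase, Ccl3 (0.954) and Bcl2a1d (0.945), a Bcl2 family member, with Tnf at rank 13. For EGFP they were Rela (0.910), Hcls1 (0.876), Hif1a (0.873), the hypoxia-inducible factor, Oasl1 (0.870) and Atf4 (0.865), a stress-response factor, with mCherry at rank 26. The sums share batches, treatments and depth, so r carries no p here.

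Across the scRNA-seq LPS cells themselves, the genes most like mCherry were not those of the sums. The highest mean rho over 3 batches among 10018 genes belonged to Atp6v1e1 (0.606), a subunit of the vacuolar proton pump, Slc2a6 (0.592), a sugar transporter, Slfn2 (0.592), Il27 (0.574) and Ccrl2 (0.560), a chemokine receptor-like gene. EGFP was at rank 10 (0.506), Rela at rank 12 (0.488) and Tnf at rank 15 (0.482). Il27 was thus the 1 gene in this list and in that of Tnf over sums.

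The TNF pathway was taken as a list of 32 genes, of which 31 were tested in each technique. In scRNA-seq, 8 were called higher and 1 lower after LPS by edgeR, beside 2.67% and 1.70% of all genes, and the median log2 fold change of the list was 0.59 against -0.01 for all genes. These calls depend on the fit, as the joint fit of all 14 sums called 1 gene of all those tested in scRNA-seq. Without batch 9_1, 0.48% of all genes were called. Of 4 neighbours of Tnf in its gene cluster, Ltb, which encodes lymphotoxin beta, rose by 1.75 (SE 0.25, adjusted p = 0.0219), and Lta was at 6.01 (SE 1.32, edgeR adjusted p = 0.0579). Of 2 receptors, Tnfrsf1b, the inducible TNF receptor, rose by 1.34 (SE 0.25), and Tnfrsf1a was at 0.32 (SE 0.34). Neither of the 2 genes tested for release of TNF from the membrane was called, and the sheddase Adam17 was at 0.85 (SE 0.11, edgeR adjusted p = 0.0159), below the limit of fold.

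In the receptor complex, 2 of 9 genes rose, the ubiquitin ligase Birc3 (2.74, SE 0.28) and the deubiquitinase Tnfaip3 (3.15, SE 0.31), which restrains NF-κB. Among 7 genes of mRNA decay and stability, the ribonuclease Zc3h12a rose by 3.23 (SE 0.38), while Zfp36l2, an AU-rich element binding protein, fell by 1.34 (SE 0.25). Of 7 genes of transcription, Nfkb1 (1.75, SE 0.20), the NF-κB p105 and p50 subunit, Nfkbia (2.28, SE 0.21) and Litaf (1.09, SE 0.20) rose. In Live-seq edgeR called none of the 31, 21 had a positive fold change, and the list's median was 0.60 against -0.48 for all genes.

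**Figure D5:**
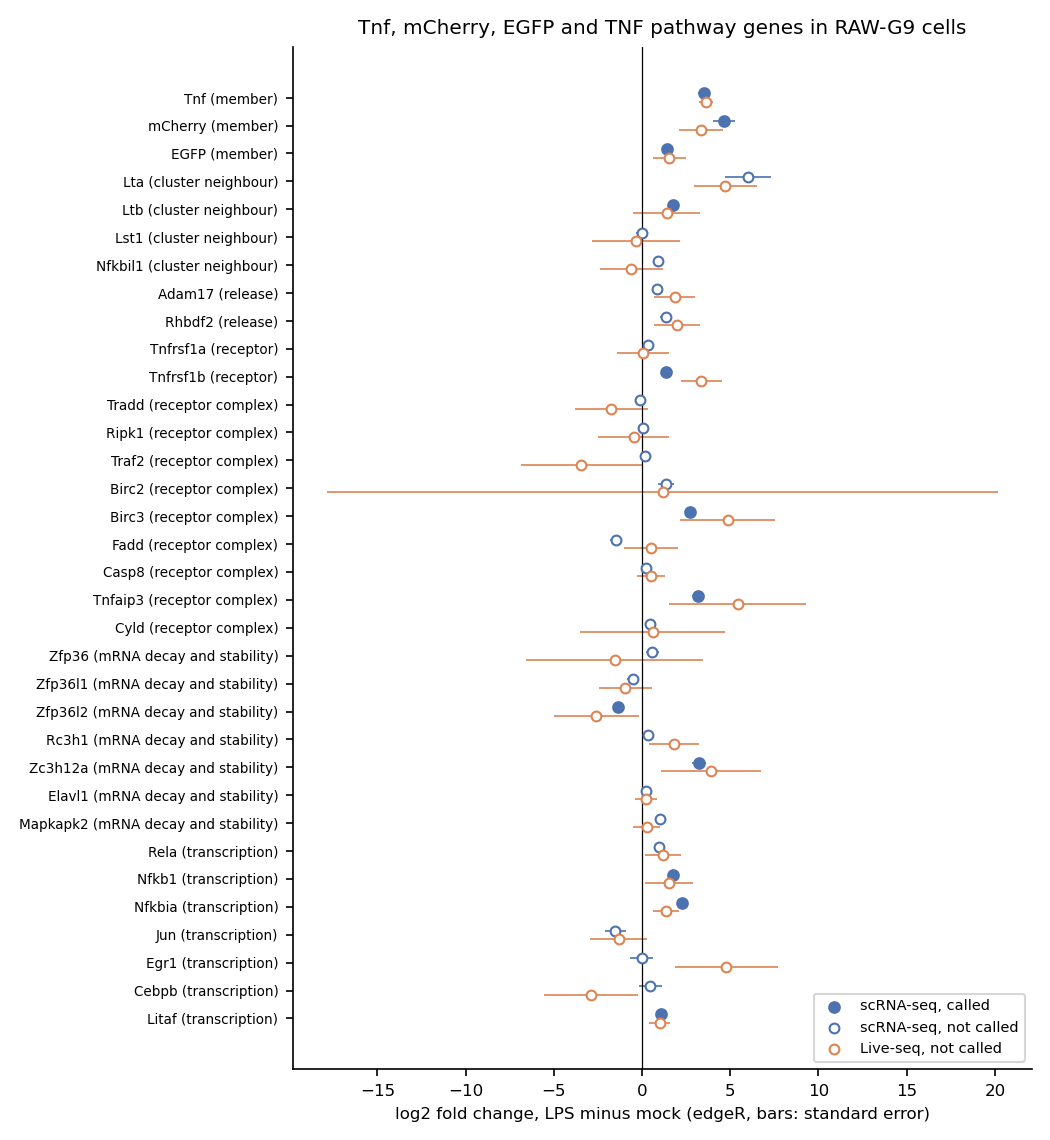
Log2 fold change of LPS against mock with its standard error (edgeR over batch sums) for Tnf, mCherry, EGFP and the 31 tested pathway genes, grouped by role, in scRNA-seq (blue) and Live-seq (orange). Filled points were called, all in scRNA-seq, with Tnf, mCherry, EGFP and 9 of the 31 pathway genes among them.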

How the data were processed

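The authors aligned read 1 with STAR 2.6.1c to mm10 with the transgene sequences added. They counted uniquely mapped reads per gene (HTSeq, unstranded) and deposited the raw counts of 1012 libraries. Reads of a gene and of an overlapping one on the other strand cannot be told apart. Members, lists and tests were chosen with earlier results of these data known. With 20 negative-control genes and 89 genes of ribosomal proteins set aside, counts were summed per batch and treatment with at least 3 cells, and these sums were the replicates. They show the spread between batches, and nothing in the labels says whether a batch is a separate culture. Genes that reached 2 counts in 15% of the cells of some scRNA-seq state entered edgeR 4.0.16 (R 4.3.3) after filterByExpr (minimum count 2, minimum proportion 0.05), with TMM, batch and treatment in glmQLFit and glmQLFTest, a prior count of 0.125 and Benjamini-Hochberg adjustment. The Live-seq fit used those of the 11676 genes tested in scRNA-seq that had a Live-seq count in these sums (11456). Batch is a shared label and served as the block. After group means were removed, mock and LPS sums of a batch had correlations of 0.258, 0.366 and 0.454 in scRNA-seq and of 0.197, 0.06, 0.014 and 0.101 in Live-seq. Per-pair changes were computed with 0.5 counts added and tested by exact sign flips. DESeq2 1.42.0, other filters, thinning and left-out batches were alternatives. The SE of a fold change was its size over the square root of the edgeR F statistic. The fits were also run on simulated data, whose outcome is not given here, and no statement rests on it. Named genes were the 3 members, the called genes of the pathway list and Rela, the 5 genes most like each member over sums and the 5 most like mCherry across cells. Lta, Tnfrsf1a, Adam17 and the 6 inflammatory genes in the high mock cells were added after their values were seen. Per-cell levels are CPM of kept counts.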

Additional observations from a re-analysis of the deposited data

Results flagged for a closer look

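The mock sum of Live-seq batch 6 stood apart from the other 3 Live-seq mock sums for both transgenes, with 1328 CPM of mCherry (gap over range 0.926) and 539.6 CPM of EGFP (gap over range 0.956), both above Dixon's 95% critical value for 4 values. In this sum of 8 cells, 1 cell held 92.4% of the mCherry and 78.0% of the EGFP counts. The share of LPS cells with a Tnf count was 93.8% in Live-seq batch 7 and complete in the other 3 batches, so that a single cell of 16 without Tnf (with 1135 genes detected and none of the 3 members) set batch 7 apart. Among 16 groups tested in this way, chance flags about 1 in 20 if the values are normal and without ties. The Tnf shares of the other 3 batches are tied, so any single departure gives a gap over range of 1.0. That rate therefore does not hold for the Tnf share.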

How the results depend on the processing

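Most alternatives kept direction and call, and the others follow, with counts of calls given as a percent of the genes of the chosen fit. That fit, with batch as block, called 4.37% of genes in scRNA-seq. With no replicate block it called 0.839%, Tnf and mCherry among them, EGFP was no longer called (1.54, adjusted p = 0.161), and the EGFP interaction turned to -1.16. It also moved the Live-seq changes of mCherry to 1.48 and of EGFP to 0.40, and the mCherry interaction to -2.54. DESeq2 called 9.63% in scRNA-seq and 2.02% in Live-seq (Tnf 3.69), 0.519% for the interaction, and 0.32% (mock) and 2.71% (LPS) between techniques, and the newer edgeR 4 fit called 7.85% in scRNA-seq. A joint fit of all 14 sums called 1 gene in each technique (0.00856% and 0.00873%), and there Tnf (3.49), mCherry (4.70) and EGFP (1.38) lost their scRNA-seq calls, with adjusted p of 0.277, 1.0 and 1.0. Leaving out each batch gave 0.48% to 8.47% of scRNA-seq genes called (0.48% without 9_1, 2.01% without scRNA, 8.47% without 8_8), 3.13 to 3.96 for Tnf, 4.05 to 5.55 for mCherry and 1.14 to 1.68 for EGFP. EGFP was also not called without batch scRNA (adjusted p = 0.0684). In Live-seq these ranges were 3.41 to 3.86, 2.35 to 4.45 and 0.99 to 2.28, with 0 calls by edgeR each time. The Tnf difference between techniques in mock cells was -0.02 with the newer fit and -0.05 with DESeq2. The mean difference of the mCherry and Tnf changes lay between -0.06 and 0.85 over left-out pairs, with -0.02 without Live-seq batch 7, -0.06 without scRNA-seq batch 8_8 and -0.04 without 9_1. It was -0.01 without the 6 LPS libraries taken as repeat extractions, where the EGFP change was 1.24 (exact sign-flip p = 0.0781). With batch 8_8 averaged over techniques, the mean changes were 3.62 for mCherry and 1.48 for EGFP (exact sign-flip p = 0.0625 for each). The alternatives on high mock cells, repeat extractions and averaged batch 8_8 for the changes were chosen after seeing the data. Thinned mock shares were 49.5% (Tnf, Live-seq), 88.5% (Tnf), 53.2% (mCherry) and 86.5% (EGFP, scRNA-seq). The cause of these shifts was not tested. Live-seq sums held 4 to 63 cells.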
